A study of Rattus norvegicus with 66 samples.

Results

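The 10 genes described here were chosen as genes of the endothelium of brain capillaries and its barrier function, and were measured in the dorsal hippocampus of rat pups. Which cells of this tissue expressed each gene was not tested. Cldn5 and Ocln code for tight-junction proteins, and Pecam1 for an adhesion molecule of the endothelial surface. Flt1, Kdr and Tek code for receptor tyrosine kinases, with vascular endothelial growth factors as ligands of Flt1 and Kdr and angiopoietins as ligands of Tek. Slco1a4, Abcb1a, Mfsd2a and Slc2a1 code for carriers that move organic anions, lipophilic drugs, lysophospholipids and glucose. They were picked by name out of 37777 entries of the gene table that accompanies the counts. 9 were found under their symbol, and Slco1a4 was found by its NCBI gene number in the entry that the gene table names Slco1a2. All 10 passed the filter on low counts in every comparison.

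The blood-brain barrier is formed by endothelial cells that seal the gaps between them with tight junctions, restrict passage through the cell and carry nutrients and waste by selective transporters. Pericytes, astrocyte endfeet and ligands such as Wnt7a and Wnt7b, released by neural cells, maintain these properties. In the rat hippocampus vessels still grow and branch in the first postnatal week, with vascular endothelial growth factor and its receptors as main drivers.

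RNA was sequenced from 41 male and 23 female Long Evans pups on postnatal day (PND) 6, in 66 libraries of which 2 pups had 2 each. Dams received Aroclor 1254, a commercial mixture of polychlorinated biphenyls, in chow at 0.5 or 5 mg/kg (Aro0.5, Aro5), bisphenol A in chow at 0.5 or 5 mg/kg (BPA0.5, BPA5), or the organophosphate insecticide chlorpyrifos by subcutaneous injection at 1 or 3 mg/kg (CPF1, CPF3). Chow was given from before mating through lactation, and injections during gestation and again after birth. Feeding controls (CONF) received chow without a chemical, and injection controls (CONSC) the vehicle, which is saline in the sample labels and DMSO in the study's methods. The low doses were sequenced in males and the high doses in both sexes. Males comprised 4 CONF, 5 CONSC, 4 Aro0.5, 4 BPA0.5, 4 CPF1, 6 Aro5, 7 BPA5 and 7 CPF3 pups, females 5 CONF, 5 CONSC, 5 Aro5, 4 BPA5 and 4 CPF3 pups. Exposure reached the pups only through the dam, with mostly 1 pup per sex and litter. The tissue held dorsal hippocampus with a small piece of lateral neocortex, from animals killed by decapitation.

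The libraries held 10644138 to 86206550 counts each (median 20740650), which left 19 to 283 counts per pup for Slco1a4, which had the fewest, and 297 to 4559 for Cldn5. Levels are given as CPM, counts per 1000000 counts of the pup, and are compared between pups for 1 gene at a time. Neuronal, astrocytic, microglial, mural and red blood cell markers were detected in all groups, and the 5 choroid plexus markers summed to 1257 to 3884 CPM in male and to 1569 to 4490 CPM in female controls. In such bulk tissue, fewer endothelial cells and less RNA per cell cannot be told apart. Library names come in 2 forms, with a separator after the group name (form A) or without (form B). In males, 9 of 10 control libraries and all 12 low-dose libraries had form A, and all 20 high-dose libraries form B, so that high dose and library set cannot be told apart. Of the female control libraries, 5 had form A and 6 form B.

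Upstream sequences are shown for Cldn5 and Slc2a1, which varied together between pups of a group, and for Flt1 and Kdr, which also did. Each is the stretch of 250 bases before the transcription start in RefSeq's assembly GRCr8, read 5′ to 3′ on the gene's strand. Capitals mark the GC box, searched as GGGCGG and, for the other strand, as CCGCCC.
Cldn5, chr11:95718599-95718848, minus strand: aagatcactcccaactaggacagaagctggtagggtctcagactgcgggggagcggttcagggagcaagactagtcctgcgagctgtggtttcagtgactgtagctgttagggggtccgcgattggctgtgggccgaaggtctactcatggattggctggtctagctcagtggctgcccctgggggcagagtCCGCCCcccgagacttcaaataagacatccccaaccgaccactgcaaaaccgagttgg
Slc2a1, chr5:138002272-138002521, plus strand: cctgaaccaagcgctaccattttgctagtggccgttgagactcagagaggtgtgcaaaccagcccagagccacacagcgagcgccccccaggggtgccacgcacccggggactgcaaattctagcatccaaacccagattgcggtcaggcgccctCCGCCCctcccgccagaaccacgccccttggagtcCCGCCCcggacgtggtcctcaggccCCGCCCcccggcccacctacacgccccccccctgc
Flt1, chr12:12333180-12333429, plus strand: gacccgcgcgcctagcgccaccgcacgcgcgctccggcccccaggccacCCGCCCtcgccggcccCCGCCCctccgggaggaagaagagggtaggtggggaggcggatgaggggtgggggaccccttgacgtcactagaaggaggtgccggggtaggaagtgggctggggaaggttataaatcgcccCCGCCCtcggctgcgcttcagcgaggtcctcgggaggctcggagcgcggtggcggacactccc
Kdr, chr14:32571813-32572062, plus strand: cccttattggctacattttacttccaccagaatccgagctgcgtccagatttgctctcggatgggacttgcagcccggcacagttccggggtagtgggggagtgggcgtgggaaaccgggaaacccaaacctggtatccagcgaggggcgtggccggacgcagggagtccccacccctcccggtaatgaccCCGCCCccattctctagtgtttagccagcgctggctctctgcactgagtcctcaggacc
RefSeq's table held the stretch for 7 of the 10 genes. The GC box occurred 3 times each before Slc2a1 and Flt1, once each before Cldn5, Kdr and Abcb1a, and not before Ocln and Slco1a4, against 30.5% of 33469 rat promoters with at least 1 copy. GC content was 58.4% for Cldn5, 68.4% for Slc2a1, 73.2% for Flt1 and 61.6% for Kdr, with a median of 51.2% over all promoters. These matches describe letters in a window and not binding of a factor.

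All 10 genes were expressed in each of the 64 pups, and the levels of most were close in the 13 groups. Cldn5 spanned 27.9 to 87.6 CPM, a 3.14-fold range over pups, and its group means went from 38.1 ± 7.22 CPM in male BPA0.5 (SD, n = 4) to 67.0 ± 7.14 CPM in female CONSC (SD, n = 5). Slco1a4 spanned 1.13 to 5.33 CPM, a 4.72-fold range, from low counts. Pecam1 was the most even, at 12.2 to 18.5 CPM or 1.51-fold, followed by Kdr at 32.5 to 50.3 CPM or 1.55-fold. Mfsd2a had the narrowest range of group means, 22.6 CPM in female BPA5 to 25.9 CPM in male CPF1. Between pups of 1 group, the SD on the log2 scale was 0.27 for Cldn5, more than in 87.2% of the genes of like level, and 0.14 for Pecam1, more than in 14.4% of such genes. Kdr had an SD of 0.14 and Slco1a4 of 0.37, the others lay between 0.16 and 0.23, and the median over 17367 genes was 0.233.

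Ordered by group mean, Cldn5 went from male BPA0.5 (38.1 ± 7.22 CPM) through male CONSC (44.7 ± 7.40), Aro5 (44.8 ± 10.4), CONF (47.3 ± 6.10), Aro0.5 (47.8 ± 8.39) and CPF1 (47.9 ± 5.91) to male CPF3 (51.4 ± 13.4). Female CPF3 (52.3 ± 1.94) and male BPA5 (55.1 ± 11.2) came next, and the other 4 female groups closed the order, with BPA5 at 59.3 ± 6.88, Aro5 at 59.5 ± 15.9, CONF at 60.7 ± 6.62 and CONSC at 67.0 ± 7.14 CPM (means ± SD). Neighbours in this order lay within 1 SD of each other, taking the wider SD of the pair. Slc2a1, the glucose carrier GLUT1, ranged in males from 48.3 ± 7.71 CPM in Aro5 to 53.3 ± 4.37 CPM in CONSC. In females it ranged from 55.3 ± 3.10 CPM in BPA5 to 62.1 ± 1.71 CPM in CONF, so that each female mean was above each male mean. Kdr had the reverse order, with every female mean (34.9 ± 2.18 CPM in Aro5 to 39.6 ± 1.93 CPM in CONF) below every male mean (40.3 CPM in Aro0.5 to 45.1 ± 3.94 CPM in CONF). Ocln group means went from 12.8 ± 1.76 CPM in female CPF3 to 17.9 ± 0.491 CPM in male CONF. Flt1 went from 9.37 CPM in male Aro0.5 to 12.5 CPM in female CONF, Tek from 12.8 CPM in female CPF3 to 16.7 CPM in male BPA0.5, and Abcb1a from 6.87 CPM in female Aro5 to 8.52 CPM in male BPA0.5.

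**Figure D1:**
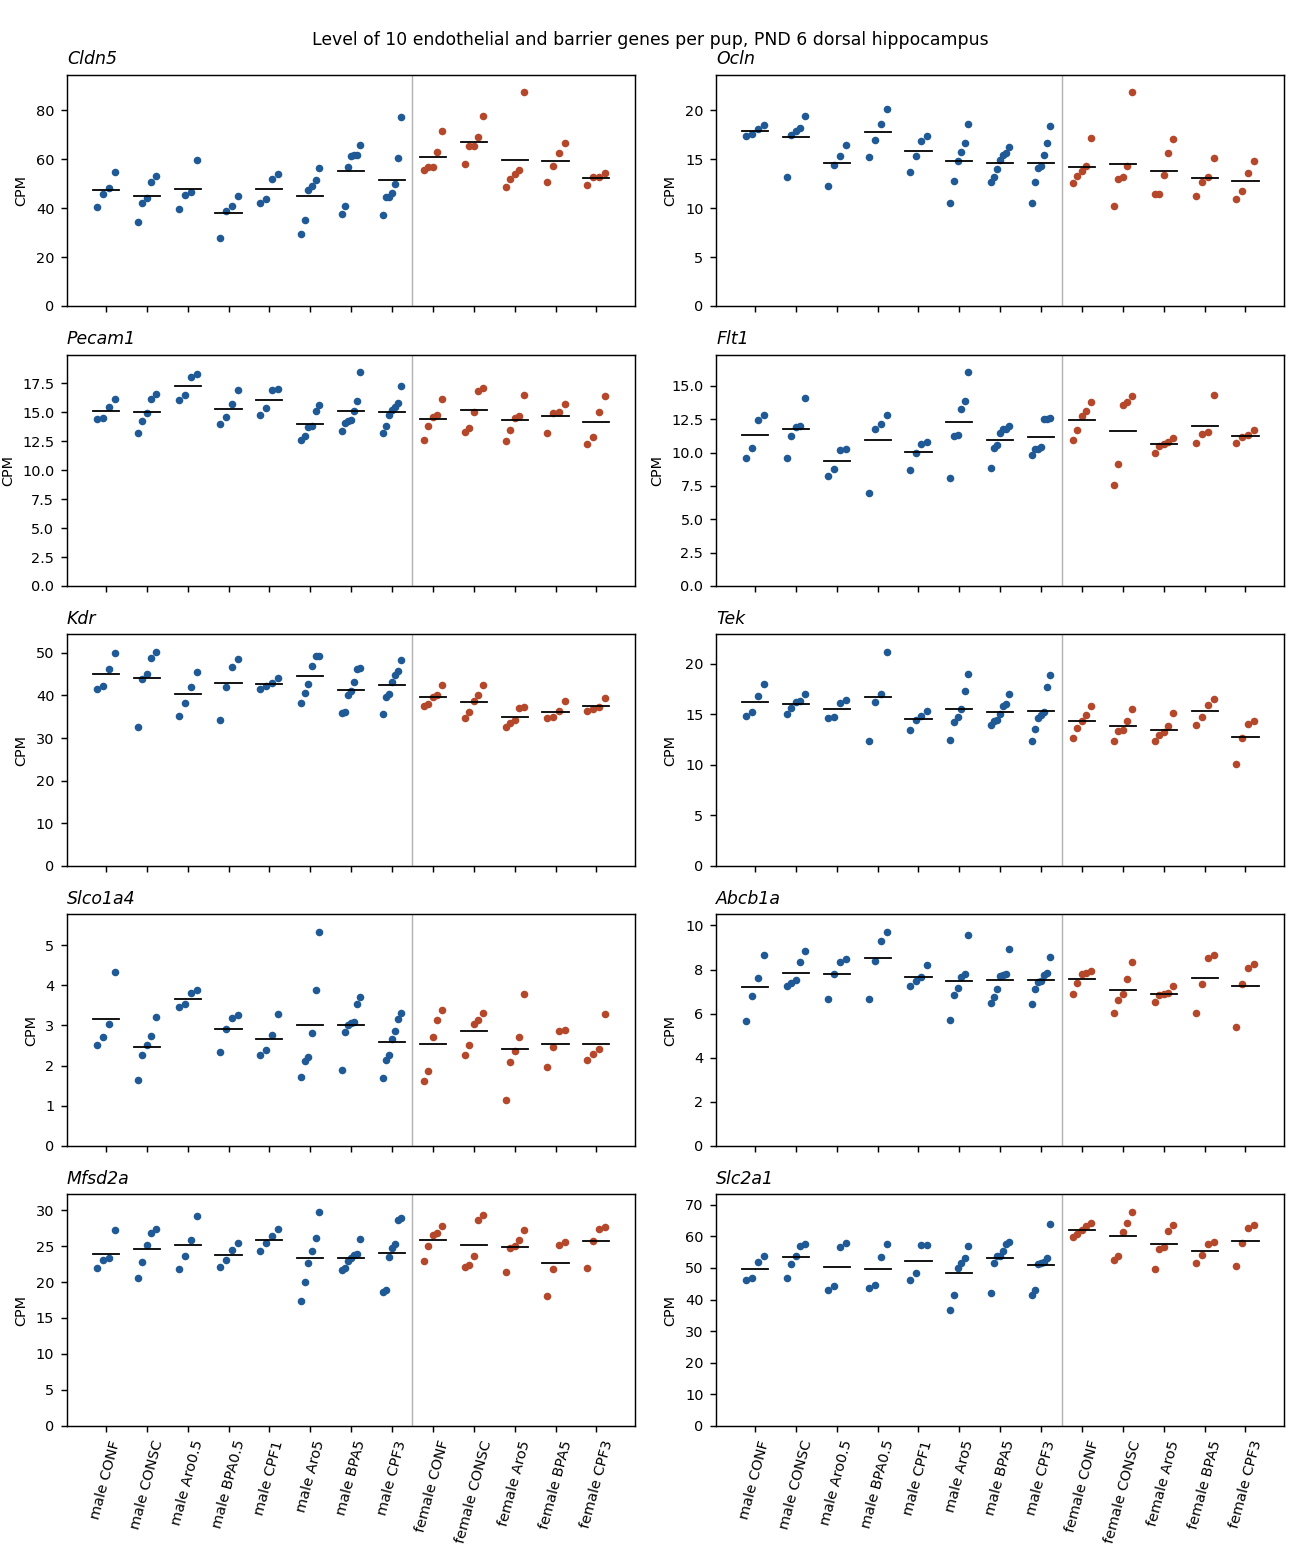
Level of each of the 10 genes in CPM (linear axis from 0) in every pup of the 13 groups. Points are pups, blue for males and red for females, and black lines are group means. Cldn5 spreads from 27.9 to 87.6 CPM, whereas Pecam1 stays between 12.2 and 18.5 CPM.

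Whether exposure changed the barrier genes was asked in 9 comparisons with the CONF and CONSC pups of the same sex combined. None of the 10 genes passed an adjusted p of 0.05 in any of them in edgeR's quasi-likelihood F test, adjusted by Benjamini-Hochberg over all genes tested. The same test called 0.195% of all genes for Aro5, 0.189% for BPA5 and 0.159% for CPF3 in males, 0.124% for Aro0.5, 0.0434% for BPA0.5 and 0% for CPF1, and 0% for each of the 3 treatments in females. At an unadjusted p under 0.05, 8 of the 90 values passed, against 11.8, 9.1, 12.6, 18.5, 8.58, 2, 3.23, 4.08 and 8.79% of all genes in the 9 comparisons in that order. Fitted changes ran from -0.26 to 0.48 on the log2 scale. The 95% interval of the change lay within 1.5-fold in either direction in 89 of the 90 cases, the exception being Slco1a4 in Aro0.5 males, with an upper bound of 0.82 on the log2 scale. Group means of exposed pups stood at 81.0 to 132% of controls, with 72 of 90 between 90 and 110%.

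**Figure D2:**
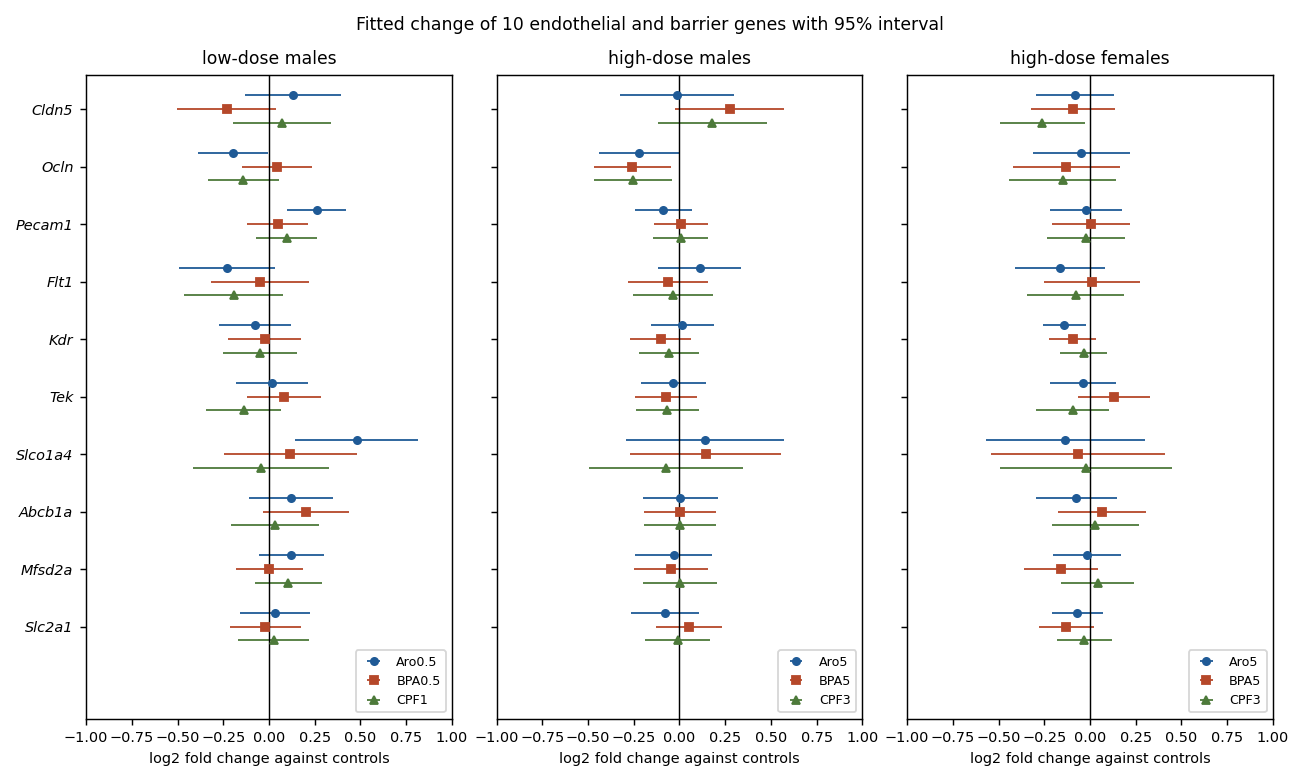
Fitted log2 fold change against controls of the same sex (points) with its 95% interval (lines) for the 10 genes in low-dose males, high-dose males and high-dose females. Most intervals cross 0, and the Slco1a4 interval for Aro0.5 males reaches furthest, from 0.14 to 0.82.

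Among the junction genes, Ocln was the one with the most unadjusted differences. Control males had 13.2 to 19.4 CPM of Ocln with a median of 17.9 (n = 9). Aro5 males had 10.5 to 18.6 CPM with a median of 15.3, BPA5 males 12.7 to 16.2 CPM with a median of 14.9, and CPF3 males 10.6 to 18.4 CPM with a median of 14.4. All 3 groups overlapped with the controls, where 8 of 9 pups had 17.4 CPM or more. The fitted log2 changes were -0.22 ± 0.11 (SE) for Aro5, -0.26 ± 0.10 for BPA5 and -0.25 ± 0.10 for CPF3, with adjusted p values of 0.418, 0.501 and 0.341 by edgeR's quasi-likelihood test. These comparisons share their control pups, and the Aro5 value was -0.14 without the pup 115-14y. The 5 choroid plexus markers had medians of -0.23, -0.22 and -0.30 in the same 3 comparisons, with 4, 5 and 5 of 5 below 0, and the 5 microglial markers had a median of -0.30 in CPF3. Their part in the Ocln values was not tested. With the library name form as a covariate the 3 Ocln changes were -0.00, -0.04 and -0.03, estimates that rest on the 1 male control library of form B. Between form B and form A libraries of female controls, Ocln differed by -0.25 ± 0.14 (SE) on the log2 scale (adjusted p = 0.353 by edgeR), where 1.43% of all genes were called, and in the male CONF pup N2-2y, with a library of each form, it read 19.9 CPM in form A and 15.1 CPM in form B. All 12 low-dose male libraries had form A, as did 9 of 10 male control libraries, the other being the form B library of N2-2y. Ocln of low-dose males read 12.2, 14.4, 15.3 and 16.5 CPM in Aro0.5 pups (-0.20 ± 0.09, adjusted p = 0.258 by edgeR). It read 15.3, 16.9, 18.6 and 20.2 CPM in BPA0.5 pups and 13.7, 15.3, 16.9 and 17.3 CPM in CPF1 pups.

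Cldn5, the most abundant claudin of brain endothelium, gave no common direction in the high-dose groups. High-dose males had 29.3 to 56.3 CPM with a median of 48.4 in Aro5, 37.4 to 65.7 CPM with a median of 61.2 in BPA5, and 37.2 to 77.3 CPM with a median of 46.1 in CPF3, against 34.2 to 54.9 CPM with a median of 45.6 in control males. The BPA5 median lay above all 9 control males, but the group had 2 pups at 37.4 and 41.0 CPM, and the fitted change of 0.27 ± 0.15 (SE, log2) had an adjusted p of 0.566 by edgeR. In females, Cldn5 was at 49.6, 52.7, 52.9 and 54.2 CPM in CPF3 pups, all below the lowest of the 10 control females at 55.4 CPM. That was the only 1 of 90 combinations of gene and exposed group without overlap, and it gave a fitted change of -0.26 ± 0.11 (SE, log2; adjusted p = 0.525 by edgeR). The share of all genes without overlap was not counted, and 8.79% of all genes passed unadjusted in CPF3 females. The effect of CPF3 on Cldn5 differed between sexes by -0.45 ± 0.20 (SE, log2, female minus male; adjusted p = 0.872 by edgeR's interaction test, which called 0.0463% of all genes for CPF3, 0.0984% for Aro5 and 0.0405% for BPA5). None of the 10 genes passed in the 3 interaction tests, and unadjusted 1 of the 30 values did, against 8.92% of all genes for Aro5, 2.79% for BPA5 and 5.6% for CPF3.

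Pecam1 and Slco1a4 were higher in Aro0.5 males at the unadjusted level. Pecam1 was at 16.0, 16.5, 18.1 and 18.3 CPM in Aro0.5 males and at 13.2 to 16.6 CPM in the 9 control males. The upper pair of Aro0.5 pups exceeded every control, and the change was 0.26 ± 0.08 (SE, log2; adjusted p = 0.13 by edgeR). DESeq2, the alternative test, gave the same change for Pecam1 with an adjusted p of 0.0433. Slco1a4, a carrier of organic anions at the capillary surface, was at 3.47, 3.53, 3.81 and 3.87 CPM in these pups against 1.64 to 4.33 CPM with a median of 2.71 in controls (0.48 ± 0.16, SE, log2; adjusted p = 0.16 by edgeR). The other carriers gave 0.12 ± 0.11 for Abcb1a, 0.12 ± 0.09 for Mfsd2a and 0.03 ± 0.09 for Slc2a1 in Aro0.5 males, and Flt1 gave -0.23 ± 0.13, all on the log2 scale with SE. The median over the 10 genes was 0.08, beside 0.00 over all genes, and it was -0.02 without the Aro0.5 pup 98-8y. The choroid plexus markers had a median of -0.79 in the same comparison, with summed levels of 839 to 3085 CPM in Aro0.5 males and 1257 to 3884 CPM in control males, and their part in the values above was not tested. At 5 mg/kg, Pecam1 stood at 12.6 to 15.7 CPM with a median of 13.8 in Aro5 males, and Slco1a4 at 1.71 to 5.33 CPM with a median of 2.51.

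The receptor genes had no value past the threshold, and all but 4 of their group means lay between 90 and 110% of controls. The exceptions were Flt1 at 81.0% in Aro0.5 males, 86.8% in CPF1 males and 88.0% in Aro5 females, and Kdr at 89.5% in Aro5 females. Kdr, the main signalling receptor of vascular endothelial growth factor, had fitted values of 0.02 ± 0.08 for Aro5, -0.10 ± 0.08 for BPA5 and -0.06 ± 0.08 for CPF3 in males (log2, SE). In females it was at 32.5, 33.6, 34.2, 37.1 and 37.4 CPM after Aro5, with 3 of the 5 pups below the control range of 34.6 to 42.5 CPM, a change of -0.14 ± 0.06 with an adjusted p of 0.999 by edgeR. Flt1, a receptor that also acts as a decoy for the growth factor, ranged from -0.23 to 0.11 and Tek from -0.14 to 0.13 over the 9 comparisons. Of the transporters, Abcb1a, the drug efflux pump, ranged from -0.08 to 0.20, Mfsd2a, the lysophospholipid carrier, from -0.16 to 0.12, and Slc2a1, the glucose carrier, from -0.13 to 0.05, with lowest adjusted p values of 0.565, 0.431 and 0.794 by edgeR. Reads of Abcb1a may be shared with its near copy Abcb1b, which had a median of 2.81 CPM, and those of Slco1a4 with Slco1a5, which had a median of 9.27 CPM, since the handling of reads with more than 1 match is not given in the sources used here. In Aro5 females all 10 fitted changes were below 0, from -0.16 to -0.02 with a median of -0.07, against a median of -0.00 over all genes. Of 42 further genes of endothelium, junctions and transport, 19 were above and 23 below 0 there, with a median of -0.02. Of 10 mural genes, 8 were above 0. CONF and CONSC pups did not differ in any of the 10 genes by edgeR, with 0.013% of all genes called in males and 0% in females. Unadjusted, 0 of the 10 passed there in either sex, and 0.988% and 4.29% of all genes did.

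Other genes of the vessel wall were counted by lists. Of 42 tested genes of endothelium, junctions and transport beside the 10, none passed in any of the 9 exposure comparisons by edgeR, nor did any of 11 ligands and co-receptors or 10 mural genes. The paper, which used DESeq2, reports many more changed genes in high-dose males than were called here. It lists Sox17, a gene of this endothelial list, as raised in Aro5 males with a false discovery rate under 0.05. Small unadjusted p values among the listed genes in high-dose males belonged to Reck, a co-receptor of Wnt7 signalling, in Aro5 (0.27 ± 0.09, adjusted p = 0.262), to Sox18, an endothelial transcription factor, in BPA5 (0.53 ± 0.18, adjusted p = 0.439), to Vegfb, a ligand of Flt1, in BPA5 (0.25 ± 0.09, adjusted p = 0.466), and to the interneuron gene Gad1 in CPF3 (-0.56 ± 0.15, adjusted p = 0.145). These are log2 changes with SE from edgeR's quasi-likelihood test. The endothelial list had a median of -0.01 in males after Aro5 and of 0.12 after Aro0.5, where 34 of 42 fitted values were positive and 4 passed unadjusted, all higher. Of the 10 mural genes, 8 were positive after Aro0.5, with a median of 0.10 and 4 higher unadjusted. In Aro0.5 males 18.5% of all genes passed unadjusted, and the median over all genes was 0.00. Positive values were also found for 4 of 4 fibroblast, 4 of 5 neuronal, 4 of 5 microglial and 3 of 5 astrocytic markers. Red blood cell markers were positive in 2 of 4 and choroid plexus markers in 0 of 5.

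Cldn5 and Slc2a1, in contrast, differed by sex in the unexposed pups, with overlapping ranges for Slc2a1. Control females had 55.4 to 77.6 CPM of Cldn5 with a mean of 63.8 ± 7.30 (SD, n = 10) and control males 34.2 to 54.9 CPM with a mean of 45.9 ± 6.57 (SD, n = 9). Every control female lay above every control male. How many of all genes separated the sexes in this way, or nearly so, was not counted, and 40.8% of all genes passed unadjusted. The fitted difference, female minus male, was 0.52 ± 0.08 (SE, log2; adjusted p = 3.25e-05 by edgeR's quasi-likelihood test). Slc2a1 was at 52.7 to 67.8 CPM with a median of 61.8 in females and at 46.3 to 57.6 CPM with a median of 51.9 in males, with 8 of 10 females above all males, and differed by 0.28 ± 0.05 (SE, log2; adjusted p = 0.000431 by edgeR). These 2 of the 10 genes were called in a comparison that called 30.9% of all genes, 17.8% as higher and 13.1% as lower in females. The share of called members was thus no larger than the share of all genes.

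The remaining genes gave smaller or opposite sex differences in controls. Ocln had medians of 13.5 CPM in females and 17.9 CPM in males (-0.24 ± 0.10, adjusted p = 0.0695), Tek 14.0 and 16.2 CPM (-0.16 ± 0.06, adjusted p = 0.0536) and Kdr 39.2 and 44.9 CPM (-0.15 ± 0.07, adjusted p = 0.0896), all log2 differences with SE from edgeR. Tek was lower than in any male in 7 of 10 females, and Ocln in 4 of 10. These 3 genes lay near the threshold, and most alternatives left them uncalled. Over 28 alternatives, each pup left out among them, Kdr passed in 2, Tek in 6 and Ocln in 4. Their adjusted p values by edgeR, DESeq2 or limma reached 0.38, 0.189 and 0.469. The passes with 1 pup left out were as follows. Kdr differed by -0.20 without the male CONSC pup 11-4y (adjusted p = 0.00646 by edgeR). Ocln differed by -0.33 without the female CONSC pup 9-1x, the only female above all males (adjusted p = 0.00235), and by -0.28 without the male CONSC pup 8-4y (adjusted p = 0.0342). Tek passed without 11-4y, the female CONSC pup 11-3x, the male CONF pup N4-7y or the female CONF pup N8-1x, with differences of -0.17, -0.17, -0.17 and -0.18. Pecam1, Slco1a4 and Abcb1a differed by 0.01 ± 0.07, 0.00 ± 0.16 and -0.00 ± 0.09, and Flt1 and Mfsd2a by 0.10 ± 0.11 and 0.11 ± 0.07. Within the 7 control litters with pups of both sexes, Cldn5 was higher in the female in 7, Slc2a1 in 6, and Ocln lower in the female in 7, Tek in 6 and Kdr in 6. Slco1a4, with a fitted difference of 0.00, was also higher in the female in 6 litters. Mfsd2a was higher in the female in 4, and Pecam1, Flt1 and Abcb1a each in 3.

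**Figure D3:**
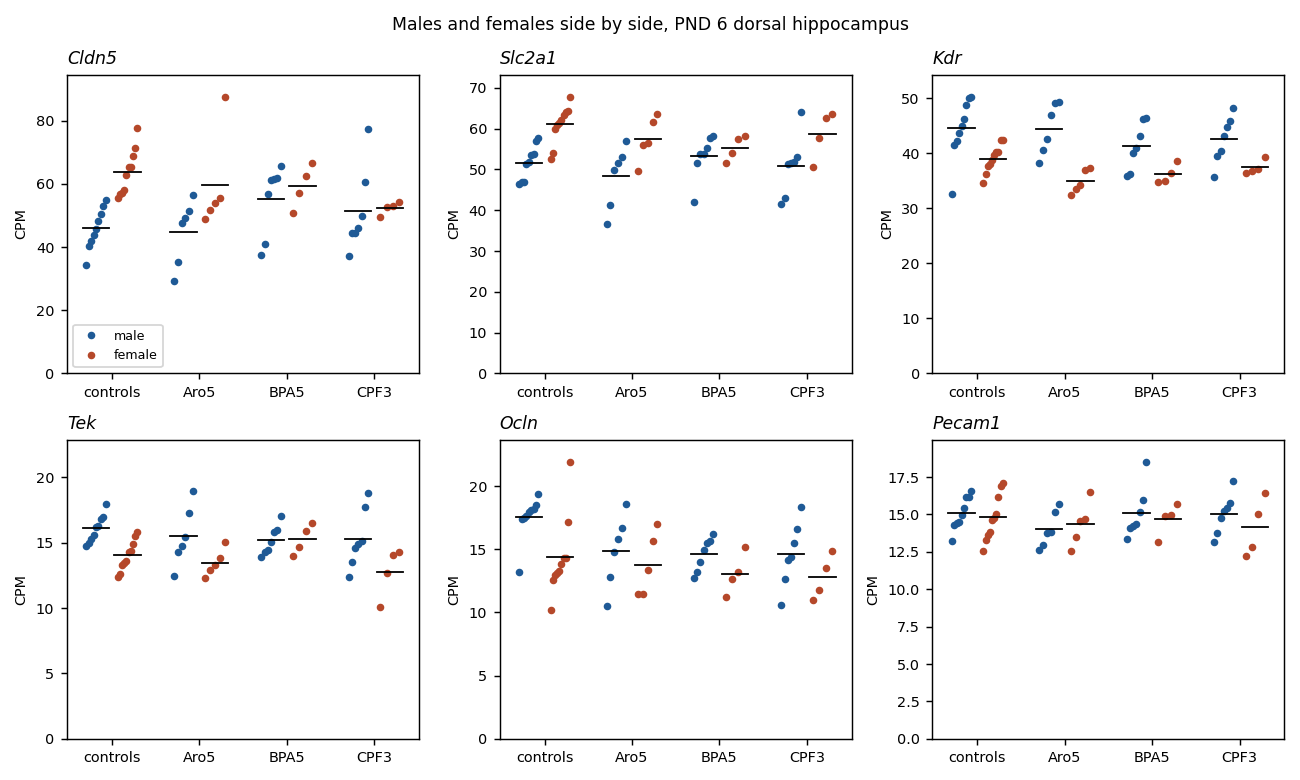
Level in CPM (linear axis from 0) of 6 of the genes in males (blue) and females (red), for controls and the 3 high-dose treatments. Points are pups and black lines are means. For Cldn5 the 10 control females lie above the 9 control males, and the sexes overlap in each of the 3 high-dose treatments. No interaction test of sex and treatment passed for Cldn5.

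The high-dose pups, 20 males and 13 females that the comparison of controls did not use, were compared for sex as well. The name form of the 13 high-dose female libraries was not determined and all 20 high-dose male libraries had form B, so that sex and library set may be mixed in this comparison. This comparison, with treatment as a term, was added after the data had been seen. Slc2a1 was again higher in females, by 0.22 ± 0.06 (SE, log2; adjusted p = 0.00598 by edgeR), and Kdr was lower, by -0.19 ± 0.05 (adjusted p = 0.00124 by edgeR), while 40.1% of all genes were called, 20% as higher and 20.2% as lower. Unadjusted, 3 of the 10 genes and 47.8% of all genes passed. Kdr had 32.5 to 39.4 CPM with a median of 36.4 in these females and 35.7 to 49.3 CPM with a median of 42.9 in the males, and it was lower in the female in each of 11 litters with both sexes. Cldn5 had 48.8 to 87.6 CPM with a median of 54.0 in females and 29.3 to 77.3 CPM with a median of 49.6 in males, so that the ranges overlapped (0.23 ± 0.11, adjusted p = 0.0829 by edgeR). The Cldn5 difference was 0.27 without the male CPF3 pup 36-3y (adjusted p = 0.0244 by edgeR) and 0.15 without the female Aro5 pup 120-3x (adjusted p = 0.225 by edgeR), and the former was the only 1 of 39 alternatives that passed. Cldn5 was higher in the female in 8 of 11 litters, and Slc2a1 also in 8. Flt1, Tek, Ocln and Slco1a4, none of which passed, were each lower in the female in 8. The female CPF3 pups at 49.6 to 54.2 CPM lay inside the range of the CPF3 males.

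The sex differences of Cldn5 and Slc2a1 in controls were checked against the library set, which was not possible for the high-dose pups. Between form B and form A libraries of female controls none of the 10 genes passed by edgeR, with -0.18 ± 0.08 for Cldn5, 0.06 ± 0.07 for Slc2a1 and 0.22 ± 0.08 for Pecam1 (log2, SE). Counting form A libraries alone, a choice made after the data had been seen, Cldn5 differed between control females and males by 0.62 (adjusted p = 0.00212) and Slc2a1 by 0.26 (adjusted p = 0.0381), by edgeR. With the form as a covariate the differences were 0.55 for Cldn5 (adjusted p = 0.00031) and 0.27 for Slc2a1 (adjusted p = 0.00496). Cldn5 also varied between the 2 libraries that carry the same litter and pup number. For N2-2y the labels of both give 1 time of dissection, but for N4-3x the times differ, so that the labels leave in doubt whether the N4-3x libraries are of 1 animal. The male CONF pup N2-2y had 30.5 CPM of Cldn5 in its form A library and 49.3 CPM in its form B library, a ratio of 1.61, and the female CONF pup N4-3x had 60.8 and 50.4 CPM, a ratio of 0.828. For Slc2a1 the pairs were 40.8 and 52.5 CPM in N2-2y, and 61.7 and 59.5 CPM in N4-3x. Kdr differed far less, with 46.6 and 46.0 CPM in N2-2y and 37.5 and 37.9 CPM in N4-3x. The counts of Cldn5 behind these pairs were 503 and 874 in N2-2y and 1837 and 889 in N4-3x.

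Other endothelial genes differed by sex in both directions. Of the 42 other vascular genes tested in controls, 11 were higher and 4 lower in females at an adjusted p under 0.05 by edgeR, beside 17.8% and 13.1% of all genes, with a median difference of 0.03 on the log2 scale, beside -0.02 over all genes. Among transcription factors, Sox18 (0.91 ± 0.15), Foxq1 (0.50 ± 0.13) and Sox17 (0.47 ± 0.11) were higher. Higher too were the signalling genes Tie1 (0.32 ± 0.07), a partner of Tek, Eng (0.43 ± 0.08), a co-receptor of the transforming growth factor family, Nos3 (0.55 ± 0.07), the endothelial nitric oxide synthase, Adgra2 (0.35 ± 0.07), which cooperates with Reck in Wnt7 signalling, and Ramp2 (0.18 ± 0.07). The list further held Lsr (0.28 ± 0.08), a protein of tricellular junctions, Bsg (0.37 ± 0.06), and Plvap (0.78 ± 0.15), a component of fenestrated and immature vessels that the mature barrier lacks. The genes lower in females were Abcc4 (-0.24 ± 0.06), an efflux pump, Tfrc (-0.17 ± 0.06), the transferrin receptor, Insr (-0.21 ± 0.05), the insulin receptor, and Itm2a (-0.14 ± 0.05). Values are log2 differences, female minus male, with SE.

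The ligands Vegfb (0.33 ± 0.07) and Wnt7b (0.90 ± 0.13) were the 2 of 11 ligands and co-receptors that passed, and Anpep (0.28 ± 0.09) and Notch3 (0.79 ± 0.09) the 2 of 10 mural genes, all higher in females on the log2 scale with SE. Markers of other cell types moved as well, in a comparison that called 30.9% of all genes. Higher in females were Rbfox3 (0.68 ± 0.10) and Tubb3 (0.48 ± 0.10) of 5 neuronal, Col1a1 (0.49 ± 0.13) and Col3a1 (0.23 ± 0.09) of 4 fibroblast and meningeal, and Hba1 (0.68 ± 0.14) and Hba2 (0.72 ± 0.14) of 4 red blood cell markers tested, while Slc1a3 (-0.17 ± 0.05) of 5 astrocytic markers was lower. The summed neuronal markers were at 2411 to 4029 CPM with a median of 3524 in female and at 2439 to 3167 CPM with a median of 2704 in male controls. The summed mural markers were at 169 to 213 CPM in female and 161 to 188 CPM in male controls, and the red blood cell markers at 848 to 1439 and 585 to 1288 CPM. The part of these cell types in the differences of Cldn5 and Slc2a1 was not tested. No microglial or choroid plexus marker passed in controls.

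In the high-dose pups, 11 of 42 vascular genes were higher and 7 lower in females, beside 20% and 20.2% of all genes. Eng, Nos3, Sox18, Foxq1, Adgra2, Ramp2, Bsg and Plvap were called as higher here as in controls, and Tfrc, Insr and Itm2a as lower in both. Vwf, Erg and Foxf2 were called as higher, and Reck, Adgrl4, Tjp1 and Slco1c1 as lower, among the high-dose pups. Whether the sex difference of any listed gene itself differed between control and exposed pups was not asked here beyond the interaction tests, in which no listed gene passed.

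Between pups of the same group the 10 genes did not vary as 1 unit. Group means were subtracted from the log2 CPM of each gene, and deviations were correlated over the 64 pups, which share library sets and depth. Against the mean of the other members, Ocln had r = -0.12 and Cldn5 r = -0.06, and the rest had 0.08 to 0.59. Of 45 pairs, 26 correlations were positive and 19 negative, with a median Pearson's r of 0.08. In permutation tests within groups with 100000 resamples, 15 passed an adjusted p of 0.05, 14 of them positive. The share of pairs of all genes that would pass was not determined. Of 17367 genes, 1481 had r over 0.7 and 1341 r under -0.7 with the first axis of variation within groups, described below. The closest pair was Cldn5 and Slc2a1 (r = 0.71, permutation p = 1e-05, the smallest these permutations can give, adjusted p = 0.00015; Spearman's rho = 0.65, permutation p = 1e-05, adjusted p = 0.000337). Without the 2 pups farthest from the median of Cldn5, r was 0.66. It was 0.80 in 41 males and 0.28 in 23 females, 0.68 in 21 control and low-dose males and 0.86 in 20 high-dose males.

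**Figure D4:**
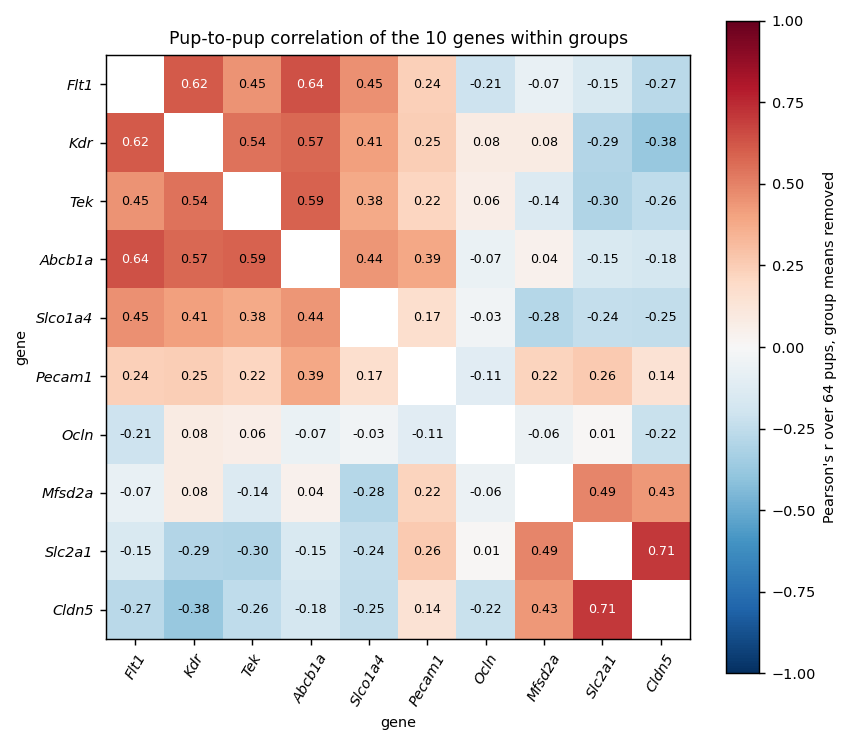
Pearson's r between the 10 genes over 64 pups after removal of group means, coloured from blue (negative) to red (positive). The receptor genes Flt1, Kdr and Tek form a block with Abcb1a and Slco1a4, and Cldn5, Slc2a1 and Mfsd2a form another with r of 0.43 to 0.71.

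The receptors correlated with each other and with the efflux pump. Flt1 and Abcb1a had r = 0.64 (adjusted permutation p = 0.00015; rho = 0.58, adjusted permutation p = 0.000337), with 0.72 in males and 0.51 in females. Flt1 and Kdr had r = 0.62 (adjusted permutation p = 0.00027; rho = 0.55, adjusted permutation p = 0.00063), with 0.60 in males and 0.72 in females. For Tek, r was 0.59 with Abcb1a and 0.54 with Kdr. Flt1 and Tek were less close, with r = 0.45 (adjusted permutation p = 0.00915), rho = 0.32 (adjusted permutation p = 0.0564), r = 0.33 without the 2 farthest pups and 0.24 in females. Without the 2 pups farthest from the median, r of Flt1 was 0.58 with Abcb1a and 0.54 with Kdr. The negative pair that passed was Cldn5 and Kdr (r = -0.38, adjusted permutation p = 0.0244; rho = -0.32, adjusted permutation p = 0.061). Its r was -0.52 in males and 0.28 in females, a difference that was not tested. The male Aro5 pup 120-1y shows the contrast in 1 animal, with the highest Flt1 (16.1 CPM) and Slco1a4 (5.33 CPM) of all pups together with the lowest Slc2a1 (36.7 CPM) and Mfsd2a (17.4 CPM).

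**Figure D5:**
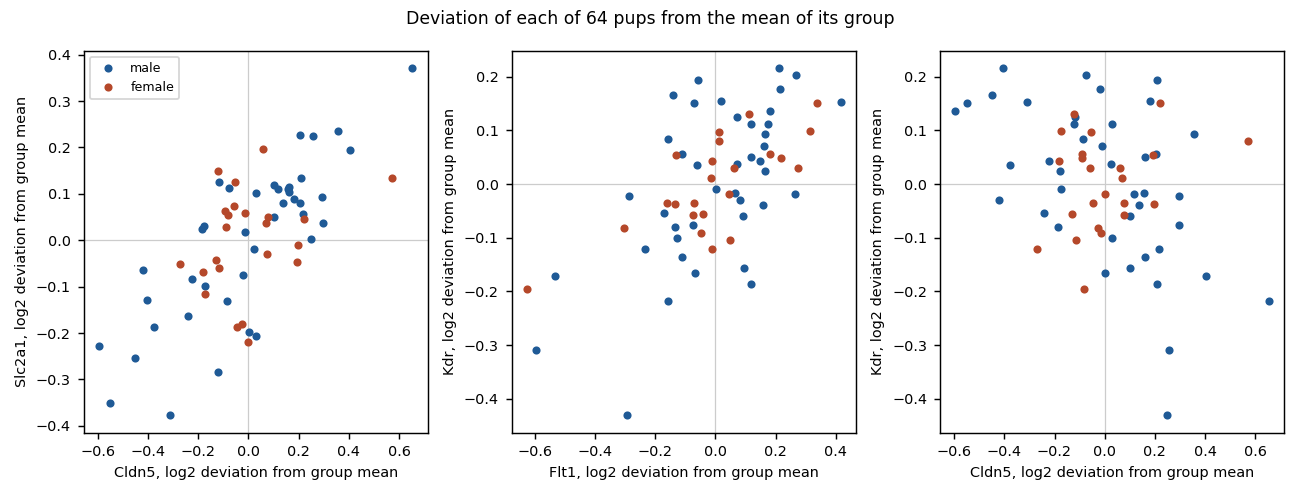
Deviation of each of 64 pups from its group mean in log2 CPM, for Cldn5 against Slc2a1, Flt1 against Kdr and Cldn5 against Kdr, males in blue and females in red. The first 2 panels rise (r = 0.71 and 0.62), and the third falls in males (r = -0.52) but not in females (r = 0.28).

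Many genes outside the vessel wall varied like Cldn5. Its nearest genes over the 64 pups were Fbxw9 (r = 0.89), Nr2f6 (r = 0.89) and Pebp1 (r = 0.89), and 1214 genes, 6.99% of those measured, had r over 0.7 with it. The nearest to Slc2a1 were Oplah (r = 0.88), Ltbr (r = 0.86) and Gas6 (r = 0.85). The first axis of variation within groups, which held 14.9% of the variance of all genes, correlated with Cldn5 at r = 0.81 and with Slc2a1 at r = 0.73, with Mfsd2a at 0.42, with Pecam1 at 0.05 and Ocln at -0.07, and with Abcb1a, Slco1a4, Tek, Flt1 and Kdr at -0.47 to -0.65. Scores on this axis were -2.71 to 34.7 with a median of 9.78 in control females and -28.9 to 21.0 with a median of -5.22 in control males, and the part of this axis in the sex difference of Cldn5 and Slc2a1 was not tested.

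Other members had their own neighbours. Tek was nearest to Adgrl4 (r = 0.73), an endothelial receptor listed in the gene table as Eltd1, and then to Rab6a and Oxr1. Flt1 was nearest to Ppm1e (r = 0.83), Eps15 and Slc16a1, Kdr to Cyb5b (r = 0.75), Tmem132b and Pafah1b1, and Abcb1a to C1ql3 (r = 0.72), Rab6a and Sphkap. Ocln was nearest to Lrrc34 (r = 0.84), Efcab1 and Dcdc5, Mfsd2a to Rbpjl (r = 0.72), Tmem255b and Emid1, Pecam1 to Ctsb (r = 0.63), Daam2 and Cabp7, and Slco1a4 to Gjb6 (r = 0.68), Olfml2a and Kcnc2. The 20 genes closest to the mean of the 10 standardised members had r of 0.61 to 0.68, led by Cpt1a, Megf11 and Cds1, with Bgn, Timp3, Adgrl4, Lox and the astrocytic water channel Aqp4 among them. Further down the same 20 stood LOC684327, Tfcp2l1, Ifit2, C1ql3, Lrp4, Tanc1, Tril, Raver2, Atp2b3, Homer2, Wipf1 and LOC365985.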

How the data were processed

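RNA of the dorsal hippocampus of 64 pups was measured by RNA sequencing in 66 libraries of a stranded mRNA kit. The authors aligned reads to Rnor_6.0 with STAR and deposited raw counts per gene from featureCounts. The submitters' processing notes also name kallisto. Versions, strand setting and the handling of reads with several matches are not given in the sources used here. Groups were taken from the labels, and where a pup had 2 libraries these were added up. The labels give the libraries of the female CONF pup N4-3x different times of dissection. edgeR 4.0.16 in R 4.3.3 fitted the counts with TMM normalization, the filterByExpr filter by group and the quasi-likelihood F test, with Benjamini-Hochberg adjustment over all genes tested and a threshold of 0.05. The SE was derived from the log2 change and the F statistic. Separate models were fitted to females, to males of either dose, to CONF and CONSC, to sex in controls and in high-dose pups, to sex by treatment, and to library name form in female controls. P-values measure the spread between these pups. Alternatives were DESeq2 1.42.0, its size factors, no filter, at least 10 counts in every pup, the time window of 10.30 to 13.20 h that the study gives, libraries counted separately, form as a covariate, form A libraries alone, only the pair of groups compared, controls given by the same route, 1 pup per litter and sex, each pup left out, and limma 3.58.1 with the litter as a replicate block. Litters supplied pups of both sexes, and the estimated correlation of litter mates was -0.17 in controls (7 litters with both sexes) and -0.0061 over 52 control and high-dose pups (18 such litters). Correlations used Python 3.11.15 and numpy 2.4.6. The edgeR step was tested on simulated data. The members, gene lists and tests were chosen with earlier results of these data known. Named were all 10 members, the other listed genes with an adjusted p under 0.05 or else the 2 with the smallest p in each comparison of high-dose males, the 20 genes most like the members' mean, and the 3 most like each member. Some results that this rule names are not reported here. Genes at 0 in every pup were Robo4 of the vascular, Ndp of the ligand and Col1a2 of the fibroblast list. Hba-a1 and Hba-a2 are the entries of Hba1 and Hba2 and were counted once.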

Additional observations from a re-analysis of the deposited data

Results flagged for a closer look

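Within the 13 groups, 130 combinations of gene and group were searched for a pup that stood apart from the others by Dixon's gap test at 95%, and 2 were found, where chance gives about 1 in 20 or 6.5. Cldn5 of the female Aro5 pup 120-3x was at 87.6 CPM, against 48.8 to 55.5 CPM in the other 4 pups. Slc2a1 of that pup was the highest of its group at 63.7 CPM, without standing apart. Slc2a1 of the male BPA5 pup 88-3y was at 42.1 CPM, against 51.6 to 58.2 CPM in the other 6, and its Cldn5 of 37.4 CPM was also the lowest of its group. No cause was tested for either pup. No sex by treatment difference of a member passed the interaction test.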

How the results depend on the processing

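No member was called in 305 of 306 repeats of the 9 exposure comparisons over all alternatives, the exception being Pecam1 in Aro0.5 males by DESeq2, which raised the count from 0 to 1 and called 258 of all 16139 genes where edgeR called 20. In the sex comparison of controls the count of called members was 2, beside 30.9% of all genes. It rose to 5 with libraries counted separately, where Kdr, Tek and Ocln joined. That setting treats the 2 libraries of a pup as separate samples. The count was 3 with DESeq2's size factors (Tek joined) and with DESeq2 (Ocln joined). It was 2 to 4 with each pup left out, reaching 4 without the male CONSC pup 11-4y. The shares of all genes called under these alternatives are not reported here. With the litter as a replicate block the count stayed 2, with 0.53 for Cldn5 (adjusted p = 6.78e-05) and 0.29 for Slc2a1 (adjusted p = 0.000747) by limma, and no other call changed. In high-dose pups the count of 2 became 3 without the male CPF3 pup 36-3y, when Cldn5 joined. Of 5950 values of single members, 5936 stayed on the same side of the threshold, 14 passed it, and no called value changed sign. The median of the members in Aro0.5 males went from 0.08 to -0.02 without pup 98-8y. CPM of the effective library size moved 3 of 130 group means by more than 1 SD, to 11.6 CPM for Flt1 and 38.8 CPM for Kdr in female CPF3, and to 41.6 CPM for Kdr in male CPF1. Slco1a4, at 19 to 283 counts per pup, had the widest intervals, with an SE of up to 0.23 on the log2 scale against a median of 0.099 over the 90 changes.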
